A study of Mus musculus with 8 samples.

Results

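The calcium/calmodulin-dependent (CaM) kinase family was followed through 8 genes in polyribosome-associated RNA of the mouse brain. They encode the CaMKII subunits (Camk2a, Camk2b, Camk2d and Camk2g), the nuclear kinase gene Camk4, the upstream kinases Camkk1 and Camkk2, and the CaMKII inhibitor gene Camk2n1. The genes were found by symbol among the 21643 symbols of the deposited table of read counts per RefSeq transcript. They had 16 rows in all, and for a gene with several rows the one with the most counts was used. All 8 passed the low-count filter. Per the labels, the mice were C57Bl/6, 7 to 9 weeks old, and no allele is named. Fear-conditioned mice were compared with controls that saw the context alone, 6 h or 1 h later, in the hippocampus or the frontal (prefrontal) cortex. Each combination of tissue, training and time had 1 library, so there were 8 libraries and no replicate of any combination. The labels give 4 mice per training state and the design text 8 mice, but not how many went into a library, nor whether the hippocampus and cortex libraries came from the same animals. Hippocampus is the label of 4 libraries, although the only tissue that the design text and the extraction protocol mention is prefrontal cortex. The p-values reflect spread among these samples alone, which may be technical. In the fits, that spread is how far single libraries depart from the fitted terms, since no combination was repeated, and its estimate is shared in part over all rows. It therefore mixes interactions of those terms with error, and is not a spread among replicates. In bulk tissue, fewer cells of a type and less RNA per cell cannot be told apart, and no total RNA was analysed here.

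When calcium enters a neuron it binds calmodulin, which switches on the CaM kinases. CaMKII is a holoenzyme built mainly of alpha and beta subunits in forebrain neurons, where it gathers at synapses and is required for long-term potentiation. The alpha message is known to travel into dendrites and to be translated there. Camkk1 and Camkk2 phosphorylate and activate CaMKIV, which acts in the nucleus on the transcription factor CREB, and Camkk2 also activates AMPK. Camk2n1 binds active CaMKII and inhibits it.

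Promoter sequences, from 250 bases before to 50 after the start, were in the RefSeq table of GRCm38.p6 for 4 of the 8 genes and are shown because these members differ in how they varied between libraries. They lie at chr11:6065699-6065998 (Camk2b, minus strand), chr3:126596701-126597000 (Camk2d, plus strand), chr11:73018738-73019037 (Camkk1, plus strand) and chr5:122779361-122779660 (Camkk2, minus strand), and each is written 5′ to 3′ along the gene. Capitals mark the GC box GGGCGG on either strand and the CRE half-site TGACG, the core of the element that CREB binds. The pair of neighbouring boxes in the Camk2b window shares 1 base. The counts were made on mm9, so these positions are for the sequences only.
Camk2b: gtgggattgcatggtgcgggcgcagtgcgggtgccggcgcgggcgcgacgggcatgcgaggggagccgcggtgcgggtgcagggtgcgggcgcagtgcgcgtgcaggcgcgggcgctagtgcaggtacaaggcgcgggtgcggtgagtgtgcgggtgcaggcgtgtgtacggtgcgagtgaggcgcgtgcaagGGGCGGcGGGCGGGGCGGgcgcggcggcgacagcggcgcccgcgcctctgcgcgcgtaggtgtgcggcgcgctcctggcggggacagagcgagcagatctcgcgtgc
Camk2d: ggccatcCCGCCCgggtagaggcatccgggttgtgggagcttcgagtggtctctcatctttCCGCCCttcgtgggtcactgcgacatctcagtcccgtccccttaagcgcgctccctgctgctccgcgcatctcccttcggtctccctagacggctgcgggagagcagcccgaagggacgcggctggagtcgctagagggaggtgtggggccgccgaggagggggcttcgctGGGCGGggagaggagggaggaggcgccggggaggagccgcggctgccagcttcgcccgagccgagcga
Camkk1: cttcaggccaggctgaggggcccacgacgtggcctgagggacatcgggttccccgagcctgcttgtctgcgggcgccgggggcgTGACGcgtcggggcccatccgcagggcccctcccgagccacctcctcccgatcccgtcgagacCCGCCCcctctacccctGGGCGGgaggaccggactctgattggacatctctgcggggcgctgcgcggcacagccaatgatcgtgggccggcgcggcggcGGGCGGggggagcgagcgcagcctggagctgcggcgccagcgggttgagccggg
Camkk2: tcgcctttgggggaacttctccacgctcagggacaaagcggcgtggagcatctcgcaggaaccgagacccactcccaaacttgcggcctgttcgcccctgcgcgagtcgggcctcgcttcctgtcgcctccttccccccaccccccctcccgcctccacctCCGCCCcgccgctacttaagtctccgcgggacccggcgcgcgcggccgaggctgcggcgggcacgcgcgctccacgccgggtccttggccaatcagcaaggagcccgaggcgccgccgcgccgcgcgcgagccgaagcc
The GC box occurred 3 times in each of the Camk2b, Camk2d and Camkk1 windows and 1 time in the Camkk2 window, and 35.7% of the 32851 promoters in the table held at least 1. The CRE half-site was found in the Camkk1 window alone among these 4, against 20.8% of all promoters. Neither the E-box CACGTG (7.15% of all promoters) nor the EGR site GCGTGGGCG (0.612%) was in any of the 4. GC content was 77.3% for Camk2b, 75.3% for Camkk1, 73.3% for Camkk2 and 70.3% for Camk2d, beside a median of 52.7% over all promoters. A match is a run of letters and was not tested as a binding site.

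Before the members are described, 3 libraries need a remark. Total counts ranged between 2370973 and 5296986 per library. The conditioned 1 h libraries labelled hippocampus and cortex differed by no more than sampling noise: the mean chi-square per gene was 1.06 over 11338 genes, 0 genes differed at an adjusted p under 0.05 in this test, and the next closest pair had 4.74 with 1416 such genes. Their hippocampal neuron markers summed to 239 CPM (hippocampus label) and 242 CPM (cortex label), between the levels of the tissues, and which label is right was not settled by the files, so both were left out of the fit to 6 libraries. The fit to 8 libraries takes them by label, so 2 of its libraries are not independent. The hippocampus control 6 h library was the shallowest and had the lowest scaling factor (TMM, 0.733, against 0.974 to 1.15 in the others). It was also the least like the rest, with a mean chi-square per gene of 63.1 to 110 against each other library. No pair without it exceeded 49.4. Conditioned and control at 6 h had 63.1 in hippocampus (6249 genes differing) and 5.22 in cortex (1521 genes). The cause was not tested. For the 6 remaining libraries, 6 of 6 hippocampal neuron markers were higher in hippocampus, with summed CPM (counts scaled to library size) of 428 to 898, against 53.9 to 73.0 in cortex. Striatal neuron markers summed to 29.4 to 64.0 CPM in hippocampus, against 167 to 349 in cortex. Adora2a was at 0 in both hippocampus control libraries, Tac1 in the 6 h one, and Dsp in cortex control 1 h and in cortex conditioned 6 h, where C1ql2 was also at 0.

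**Figure D1:**
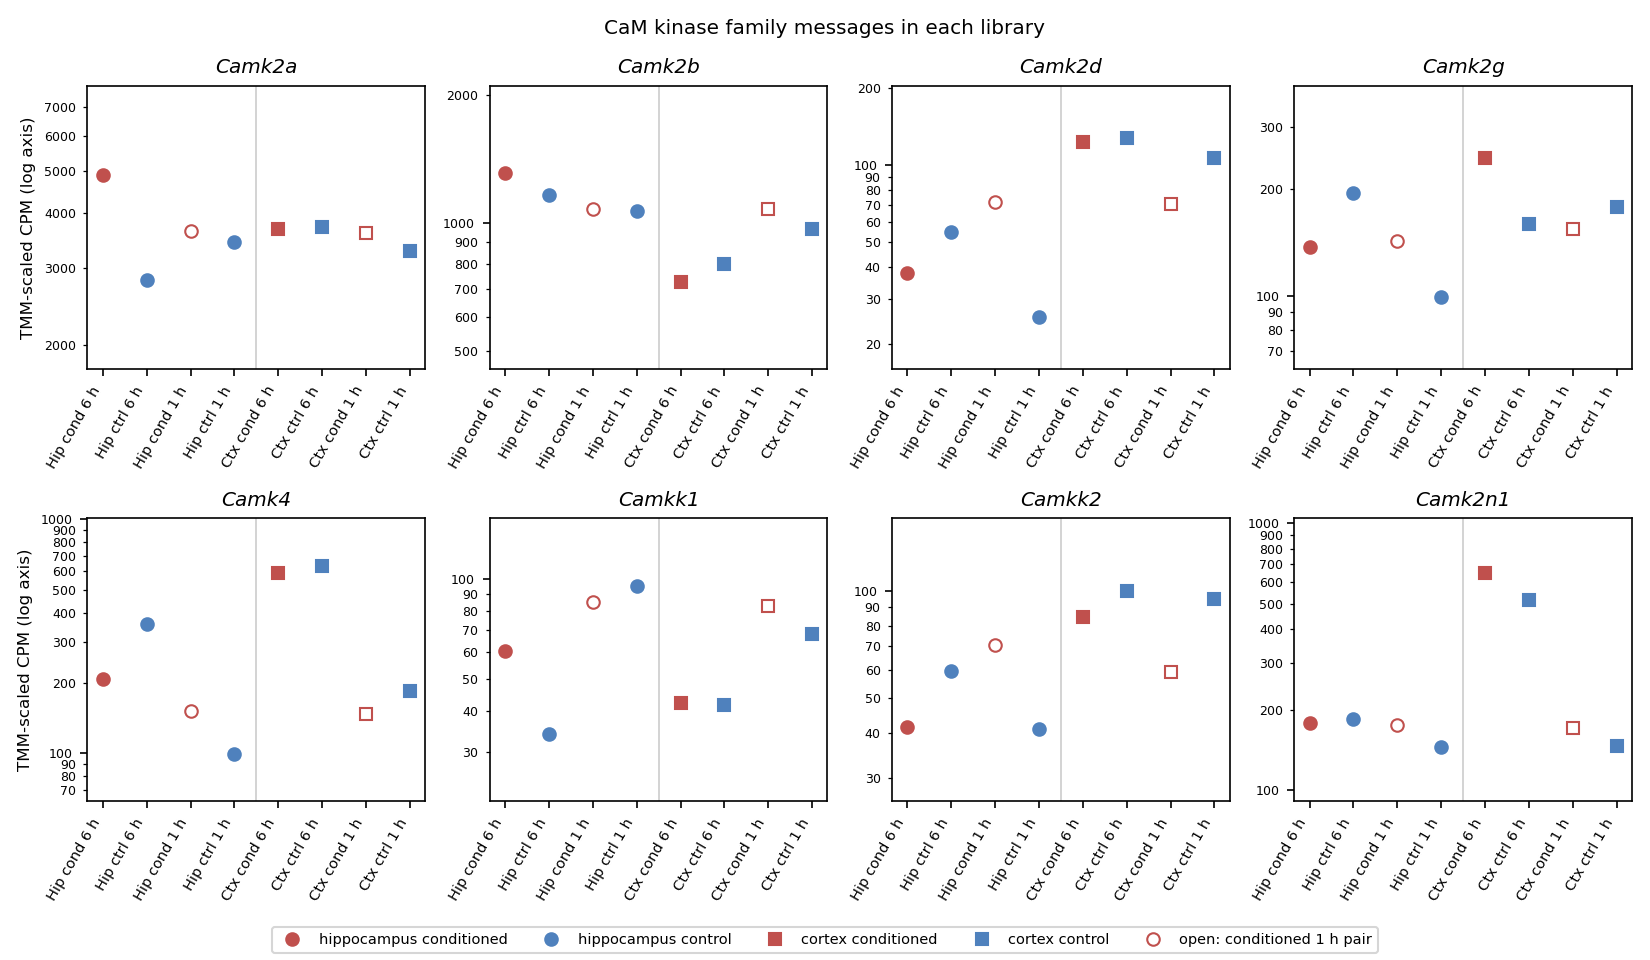
TMM-scaled CPM on a log axis for each of the 8 genes, with 1 point per library (Hip, hippocampus; Ctx, cortex; cond, conditioned; ctrl, control); open symbols are the conditioned 1 h pair. Without the pair, Camk2d lies between 25.5 and 54.7 CPM in hippocampus and between 107 and 127 CPM in cortex, and Camk4 and Camk2n1 are highest in the cortex libraries at 6 h.

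The alpha subunit gene Camk2a (NM_177407) was the most abundant member per kilobase of transcript in all 8 libraries. It had 4881 CPM in hippocampus conditioned 6 h, 2820 in hippocampus control 6 h and 3435 in hippocampus control 1 h, against 3678 in cortex conditioned 6 h, 3721 in cortex control 6 h and 3277 in cortex control 1 h. The conditioned 1 h pair had 3654 CPM (hippocampus label) and 3598 CPM (cortex label). Hippocampus held both the highest and the lowest value, so the tissues overlapped. Per kilobase, Camk2a lay between 567 and 982 CPM, and it ranked between 12 and 38 among the 13189 to 14853 genes detected in a library.

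The beta subunit gene Camk2b (NM_007595), whose protein binds actin, was second per kilobase in 6 of the 8 libraries. It had 1310, 1161 and 1063 CPM in hippocampus conditioned 6 h, control 6 h and control 1 h, against 725, 802 and 968 CPM in the corresponding cortex libraries. Every hippocampus value was above every cortex value. Such a separation of the tissues is given here and below as a description, since the share of all rows that show it was not counted. In both cortex libraries at 6 h, Camk4 was ahead of it per kilobase, at 218 and 233 CPM per kilobase (conditioned and control), against 180 and 199 for Camk2b.

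The remaining subunits were minor. The gamma gene Camk2g (NM_178597) had 137, 196 and 99.4 CPM in hippocampus conditioned 6 h, control 6 h and control 1 h, against 245, 160 and 179 CPM in cortex. The delta gene Camk2d (NM_001025438), best known from the heart, had 37.9, 54.7 and 25.5 CPM in hippocampus, against 124, 127 and 107 CPM in cortex. Camk2g overlapped between tissues, while the lowest cortex value of Camk2d was above its highest hippocampus value. The conditioned 1 h pair had 71.4 and 70.2 CPM of Camk2d (hippocampus and cortex label), between the ranges of the tissues.

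Camk4 (NM_009793) had 208, 359 and 99.7 CPM in hippocampus conditioned 6 h, control 6 h and control 1 h, against 593, 632 and 184 CPM in cortex. Its values were lowest at 1 h within each tissue. The upstream kinase gene Camkk2 (NM_001199676) had 41.6, 59.9 and 41.2 CPM in the same hippocampus libraries, against 84.6, 99.9 and 94.9 CPM in cortex, with no overlap.

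Camkk1 (NM_018883) had 60.7, 34.0 and 95.4 CPM in hippocampus conditioned 6 h, control 6 h and control 1 h, against 42.1, 41.7 and 68.2 CPM in cortex, and was lower at 6 h than at 1 h within each tissue. The inhibitor gene Camk2n1 (NM_025451) had 179, 185 and 145 CPM in hippocampus, against 651, 516 and 146 CPM in cortex. Its cortex libraries at 6 h stood above all others, and the remaining values, the conditioned 1 h pair at 175 and 171 CPM (hippocampus and cortex label) included, lay close together.

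In order of CPM per kilobase, the members were arranged alike in most libraries, with Camk2a first, Camk2b or Camk4 next, then Camk2n1 and Camk2g, and Camkk1, Camkk2 and Camk2d last. Over the 6 libraries the means were 731 ± 139 for Camk2a, 250 ± 54.7 for Camk2b and 127 ± 82.1 for Camk4 (SD, n = 6). Camk2n1 had 68.3 ± 49.9, Camk2g 45.7 ± 13.5, Camkk1 16.7 ± 6.67, Camkk2 14.5 ± 5.41 and Camk2d 14.3 ± 8.19 CPM per kilobase (SD, n = 6). The means of Camkk1, Camkk2 and Camk2d were close, and these SDs include differences of tissue and time. Their order varied by library. Camkk1 and Camk2d had 27.9 and 4.61 CPM per kilobase in hippocampus control 1 h, against 12.2 and 23.0 in cortex control 6 h. On the log2 scale Camk4 varied most across the 6 libraries (SD 1.04), then Camk2d (0.98) and Camk2n1 (0.96), and Camk2a least (0.26).

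**Figure D2:**
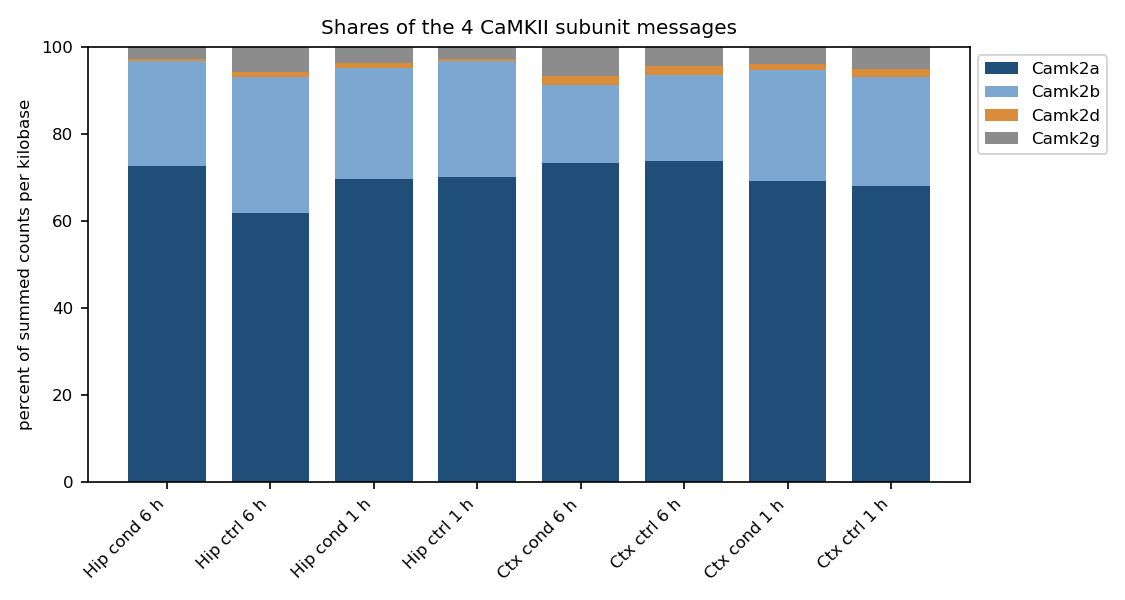
Stacked shares, in percent of the summed CPM per kilobase, of the 4 CaMKII subunit genes in each library. Camk2a makes up 61.8% to 73.8% in every library, and Camk2d no more than 2.27%.

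Of the summed counts per kilobase of the CaMKII subunit genes, Camk2a took 68.2% ± 5.69 in hippocampus and 71.8% ± 3.15 in cortex (SD, n = 3 each). Camk2b took 27.4% ± 3.70 in hippocampus and 20.8% ± 3.64 in cortex, and Camk2d 0.684% ± 0.341 in hippocampus and 2.16% ± 0.146 in cortex (SD, n = 3 each). The log2 ratio of Camk2a to Camk2b was 1.32 ± 0.31 in hippocampus and 1.80 ± 0.31 in cortex (SD, n = 3 each). The difference of -0.48 gave p = 0.2 in a two-sided exact permutation test, whose smallest possible p is 0.1 with these 6 libraries. Taken within the 3 pairs of libraries matched by time and training, the hippocampus minus cortex log2 difference was -0.45 for conditioned 6 h, -0.93 for control 6 h and -0.07 for control 1 h, negative in all 3 (two-sided exact sign-flip p = 0.25, the smallest that 3 pairs allow). The linear ratio was 3.02, 1.97 and 2.62 in hippocampus conditioned 6 h, control 6 h and control 1 h, against 4.11, 3.76 and 2.74 in cortex, so the tissues overlapped and the 6 h cortex libraries were the highest. The log2 ratio of Camk2n1 to the summed CaMKII subunits, which sets the inhibitor against its target, was -4.82 ± 0.31 in hippocampus and -3.60 ± 1.13 in cortex (SD, n = 3 each; two-sided exact permutation p = 0.2, smallest possible 0.1). In linear terms the inhibitor message stood at 0.0298, 0.0452 and 0.0331 of the summed subunits in hippocampus, against 0.145, 0.114 and 0.0339 in cortex. The spread in cortex came from the 6 h libraries, which were high, and the 1 h control, which was at the hippocampus level. Within the matched pairs the log2 difference was -2.28 for conditioned 6 h, -1.34 for control 6 h and -0.03 for control 1 h, with the same exact sign-flip p of 0.25. These pairs were compared after the values were seen.

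**Figure D3:**
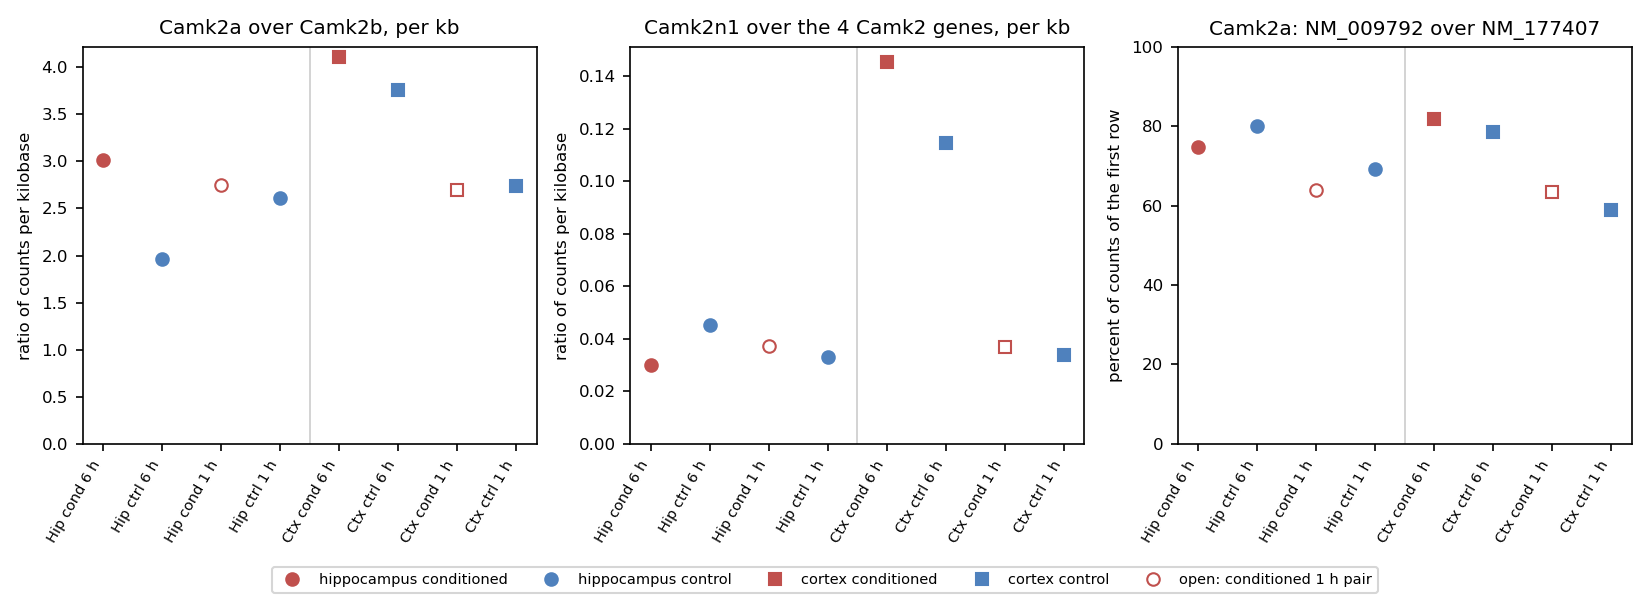
Left and middle, ratios of counts per kilobase for Camk2a over Camk2b and Camk2n1 over the summed CaMKII subunit genes; right, counts of the Camk2a row NM_009792 in percent of those of NM_177407; 1 point per library, with open symbols for the conditioned 1 h pair. Both ratios are highest in the cortex libraries at 6 h, and the Camk2a percentage is higher in all 6 h libraries than in all 1 h libraries.

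Which members differ between hippocampus and cortex was asked in a fit of tissue, time and training to 6 libraries (edgeR's quasi-likelihood test, with Benjamini-Hochberg adjustment over all rows, threshold 0.05). Camk2d fell in hippocampus, by 1.67 on the log2 scale (SE 0.33, adjusted p = 0.0033). It was the only member of 8 that passed, where 3.72% of the 16123 rows tested passed in either direction and 2% were lower. Camk4 (-1.08, SE 0.32, adjusted p = 0.0642), Camk2n1 (-1.14, SE 0.37, adjusted p = 0.0959) and Camkk2 (-0.998, SE 0.32, adjusted p = 0.0909) had negative log2 differences that missed the threshold. Camk2g (-0.48, SE 0.33), Camk2b (0.50, SE 0.33), Camkk1 (0.24, SE 0.33) and Camk2a (0.02, SE 0.34) had smaller differences, none past the threshold.

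The Camk2d difference was -1.47 (adjusted p = 0.178) without the cortex control 1 h library and -1.46 (adjusted p = 0.207) without the hippocampus control 1 h library in the same edgeR test. With the conditioned 1 h pair taken by its labels, it was -1.25 (adjusted p = 0.248), and 0 of all rows passed. Without the hippocampus control 6 h library, or without the cortex control 6 h library, Camk4, Camkk2 and Camk2n1 passed as well. Camk4 also passed with DESeq2 (adjusted p = 0.029), limma-voom (0.0321), no filter (0.0252) and the GC and length trend removed (0.0061). The striatal and hippocampal neuron markers given above move with tissue, 5 of 7 striatal markers being lower and 6 of 6 hippocampal markers higher in hippocampus at an adjusted p under 0.05, and their part in the Camk2d difference was not tested.

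**Figure D4:**
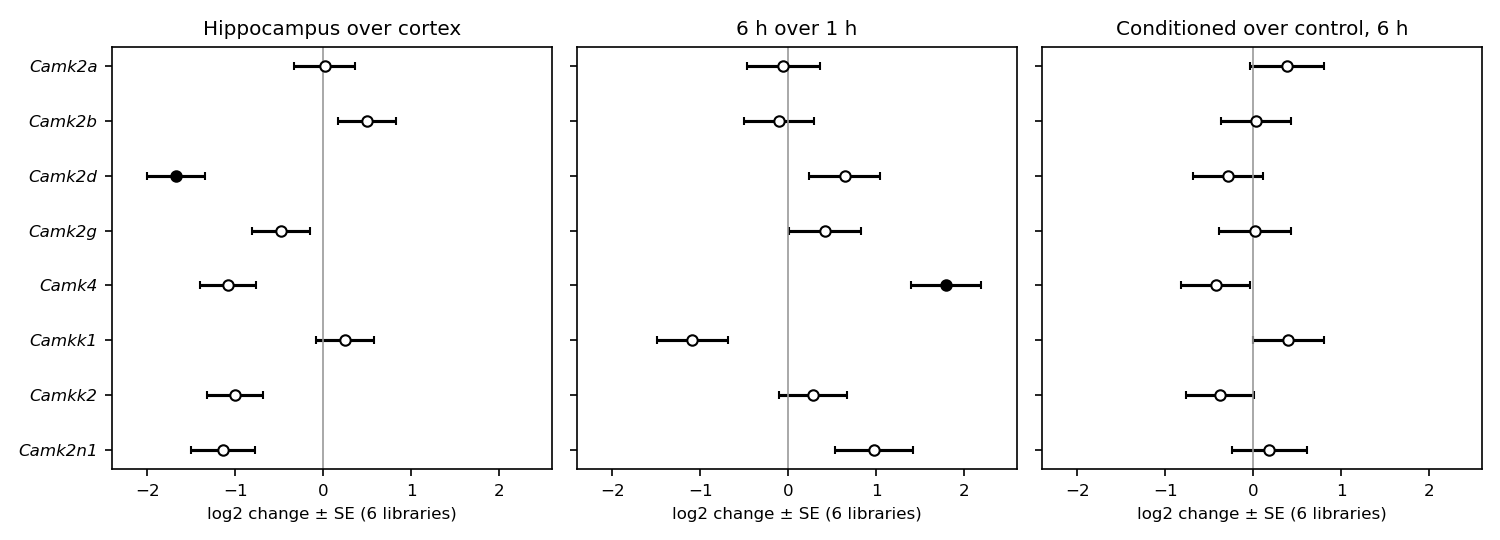
Log2 change with its SE for each of the 8 genes in the edgeR fit to 6 libraries, for hippocampus over cortex, 6 h over 1 h, and conditioned over control at 6 h; filled points passed at an adjusted p under 0.05. Camk2d passed between tissues at -1.67, Camk4 between times at 1.79, and no member passed for training.

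For time after the session, the same fit rests on the control libraries: hippocampus and cortex at 6 h against hippocampus and cortex at 1 h. Camk4 rose at 6 h, by 1.79 on the log2 scale (SE 0.40, adjusted p = 0.00552). It was the only member that passed, where 23.2% of the 16123 rows passed (12.9% higher at 6 h and 10.3% lower), so 1 passing member of 8 is no larger a share than in the table as a whole. In single libraries the 6 h to 1 h ratio of Camk4 among controls was 3.6 in hippocampus (95% interval 3.18 to 4.07, exact binomial, counting error only) and 3.43 in cortex (3.16 to 3.72). Camkk1 was -1.09 (SE 0.40, adjusted p = 0.0545) and just missed the threshold, with ratios of 0.356 in hippocampus and 0.611 in cortex. Camk2n1 was 0.98 (SE 0.44, adjusted p = 0.105), Camk2d 0.64 (SE 0.40), Camk2g 0.42 (SE 0.41), Camkk2 0.28 (SE 0.39), Camk2b -0.11 (SE 0.40) and Camk2a -0.06 (SE 0.42).

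Camk4 stood at 1.68 (adjusted p = 0.172) without the cortex control 1 h library and at 1.93 (adjusted p = 0.198) without the hippocampus control 1 h library in the edgeR test. The libraries also differed by time in how counts depended on GC content and transcript length: with that trend removed, 867 of all rows passed in place of 3745. Camk4 then stood at 1.53 (adjusted p = 0.00758) and Camkk1 at -0.45 (adjusted p = 0.43), so the Camkk1 value moved more than 1.5 times. Camkk1 passed in DESeq2 (adjusted p = 0.048), limma-voom (0.0435) and edgeR with all 8 libraries (-0.90, adjusted p = 0.0108). Camk2g stood at 0.96 in edgeR without the cortex control 6 h library, where hippocampus control 6 h was the only control at 6 h. The Camk4 transcript row has a GC content of 48.2% and that of Camkk1 54.8%, beside a median of 50.5% over genes. Camk2n1 passed with the trend removed (1.39, adjusted p = 0.04995), without the hippocampus control 6 h library (1.29, adjusted p = 0.0298) and with all 8 libraries (1.04, adjusted p = 0.0366).

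Markers of cell types also moved with time. In the same edgeR fit, 2 of 6 hippocampal neuron markers rose at 6 h and none fell, 1 of 6 inhibitory neuron and 1 of 6 astrocyte markers rose and 1 of each fell, 1 of 7 oligodendrocyte markers rose and 2 fell, and 1 of 5 excitatory neuron markers fell. No striatal neuron marker of 7 and no microglia marker of 5 passed. Summed hippocampal markers in controls were 898 and 73.0 CPM in hippocampus and cortex at 6 h, against 428 and 53.9 CPM at 1 h. Summed astrocyte markers were 1584 and 1296 CPM in hippocampus and cortex at 6 h, against 848 and 784 CPM at 1 h. Most of each sum was Slc1a2, at 1309 and 1121 CPM at 6 h, against 601 and 580 CPM at 1 h. The log2 change was positive for 3 of the 6 astrocyte markers (median -0.12), so the list had no common direction. Summed excitatory markers were lower at 6 h in both tissues, at 903 and 866 CPM in hippocampus and cortex, against 1107 and 1150 CPM at 1 h. Slc17a7 had 243 and 400 CPM in these libraries at 6 h, against 669 and 784 CPM at 1 h. The log2 change was positive for 4 of the 5 excitatory markers (median 0.48), so the sum does not give the direction of the list. The part of these markers in the Camk4 change was not tested.

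Camk2n1 had its high values in cortex at 6 h. Among controls the 6 h to 1 h ratio was 1.27 in hippocampus (95% interval 1.11 to 1.46) and 3.53 in cortex (3.22 to 3.88), by counting error only. The test of the difference, an interaction of time and tissue fitted by edgeR to the 6 libraries, gave -1.64 for hippocampus minus cortex (SE 0.89, unadjusted p = 0.0712, adjusted p = 1), with 1 residual degree of freedom. No row of 16824 passed that interaction, and 1.36% had an unadjusted p under 0.05. The other members had interactions between -0.33 and 0.63, all with an adjusted p of 1.

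Camk2a had a second row, NM_009792, with fewer counts than the first. Its counts stood at 74.8%, 80.2%, 82.0% and 78.5% of those of NM_177407 in hippocampus conditioned, hippocampus control, cortex conditioned and cortex control at 6 h. At 1 h they stood at 64.0%, 69.3%, 63.4% and 58.9% in hippocampus conditioned, hippocampus control, cortex conditioned and cortex control. With the conditioned 1 h pair counted as 1 sample, the mean was 78.9% ± 3.06 at 6 h (n = 4) and 64.0% ± 5.21 at 1 h (n = 3), a difference of 14.9 percentage points (SD). This comparison was chosen after the values were seen and is a description. The libraries differ by time in how counts depend on GC content and length, as given above, and the part of this in the percentage was not tested. The sources used here do not say how reads shared by rows of 1 gene were counted, so the percentage is not a share of isoforms. The further rows of Camk2b, Camk2d, Camk2g and Camkk2 held between 90.6% and 104% of the counts of their first row in every library, so these isoforms cannot be told apart.

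Whether fear conditioning changed the members was asked at 6 h, in the fit to 6 libraries, and over all 8 libraries with tissue and time as a block. No member passed in either, nor did any row of 16123 or 16304 (0% called in edgeR, and 0 in DESeq2 and limma-voom). At an unadjusted p under 0.05 there were 666 rows (4.13%) at 6 h and 248 (1.52%) over 8 libraries, none of them a member. Without the cortex control 6 h library, hippocampus control 6 h was the only control at 6 h. Rows passed in that fit, no member among them, but it rests on that single control and cannot test training. At 6 h the member with the smallest unadjusted p was Camk4, at -0.43 (SE 0.39, adjusted p = 0.914), and Camk2a stood at 0.39 (SE 0.42, adjusted p = 0.921). Over 8 libraries, Camk2a stood at 0.25 (SE 0.22, adjusted p = 0.96).

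Single libraries, which have no replicate and no test, differed more than that in hippocampus at 6 h. Camk2a had 20997 counts in the conditioned and 4900 in the control library, a ratio of CPM of 1.73 (95% interval 1.68 to 1.79, exact binomial, counting error only), against a ratio of 0.988 (0.969 to 1.01) in cortex at 6 h. Camkk1 had a ratio of 1.79 (1.34 to 2.41) in hippocampus and 1.01 (0.833 to 1.22) in cortex. Camk4 had 0.579 in hippocampus and 0.938 in cortex, and Camk2g 0.701 in hippocampus and 1.53 in cortex. Camk2n1 had 0.970 in hippocampus and 1.26 in cortex.

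Every hippocampus ratio at 6 h rests on the control library, which was the shallowest and the least like the others, and on its scaling. On plain totals these log2 ratios were 0.42 higher, which gives 2.32 for Camk2a and turns Camk2n1 to 1.3, while the other members stayed on the same side of 1. The interaction of training and tissue at 6 h, fitted by edgeR, gave 0.60 for Camk2a (SE 0.91), -1.10 for Camk2n1 (SE 0.80) and -0.53 for Camk2g (SE 0.76), all with an adjusted p of 1. No row of 16824 passed it, and 2.53% had an unadjusted p under 0.05. At 1 h the conditioned libraries cannot be told apart, so a ratio to control that differs between the labels largely reflects the control libraries. Camk2d was at 2.80 times its control under the hippocampus label and 0.658 times under the cortex label, and Camkk2 at 1.72 and 0.623 times. In the same order, Camk2a (1.06 and 1.10), Camk2b (1.01 and 1.12) and Camk2n1 (1.21 and 1.17) were above 1 under both labels. The other members were above 1 under 1 label only, and the causes were not tested.

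The wider pathway was described from 5 lists, by counts and medians only. The shares of all rows to read them against are 12.9% higher and 10.3% lower at 6 h. In the comparison of times, 2 of 6 calmodulin and calmodulin-buffer genes rose at 6 h and none fell (median log2 change 0.66, against -0.03 over all rows). Among them was the calmodulin gene Calm2, at 1.51 (edgeR adjusted p = 0.0267), while Calm3 stood at -1.06 (edgeR adjusted p = 0.0975). Calm2 had 9882 CPM in hippocampus control 6 h, against 3038 to 4245 in the other 6 h libraries, and stood at 0.73 without that library. Of 10 other CaM kinases and relatives, 1 rose and 4 fell (median -0.88). Cask, a synaptic scaffold with a CaM kinase domain, rose by 1.31, while Pnck (-1.85), the second CaMKII inhibitor gene Camk2n2 (-1.78) and Camk1 (-1.52) had the lowest values.

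Of 9 calcineurin genes, which encode the calcium-dependent phosphatase and its regulators, 3 rose at 6 h and none fell (median 0.31). These were the catalytic subunit gene Ppp3ca (2.05), the anchoring protein gene Akap5 (1.54) and the regulatory subunit gene Ppp3r1 (1.39). Ppp3ca had 6627 CPM in the hippocampus control 6 h library, against 871 to 1226 in the other 6 h libraries and 631 to 715 at 1 h, and without that library it stood at 0.46 (edgeR adjusted p = 0.464). Of 13 tested CaMKII partners and substrates, beside the same shares of all rows, only Lrrc7 rose (1.20, median of the list -0.30). Of 12 CREB and AMPK genes, 3 rose (median 0.29), namely the AMPK catalytic subunit genes Prkaa1 (1.45) and Prkaa2 (1.38), and Atf1 (1.44), a CREB relative.

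These counts depend on the libraries and on GC content. Without the hippocampus control 6 h library, 1 gene of the calmodulin list, 2 calcineurin genes (Akap5 and Ppp3r1) and 1 gene of the CREB and AMPK list (Prkaa2) rose, and 1 other CaM kinase relative (Camkv) fell. Lrrc7, Prkaa1 and Atf1 were not among the passing genes there, at 0.52, 0.82 and 1.31. With the GC and length trend removed, Nrgn, a calmodulin buffer, and Lrrc7 and Syn1 of the partner list rose and no list gene fell. Of these 3, Lrrc7 alone passed in the first fit. With all 8 libraries, where 7280 of all rows passed, the counts were larger: 3 genes of the calmodulin list rose, 3 other CaM kinases rose and 5 fell, 4 calcineurin genes rose and 1 fell, 1 partner rose and 3 fell, and 3 CREB and AMPK genes rose and 2 fell. The falls among them included Cabin1 (-1.05, edgeR adjusted p = 0.0041), a calcineurin inhibitor, Grin1 (-1.01, adjusted p = 0.0052), the obligatory NMDA receptor subunit, and Crtc1 (-0.96, adjusted p = 0.0084), a CREB coactivator. With the conditioned 1 h pair summed, 5 other CaM kinases, 1 calcineurin gene, 3 partners and 2 CREB and AMPK genes fell as well.

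Between tissues, 2 of the 50 list genes tested passed, beside 3.72% of all rows. Gria1, an AMPA receptor subunit that CaMKII phosphorylates, rose in hippocampus by 1.58 (SE 0.32, edgeR adjusted p = 0.00409). It had 566, 340 and 355 CPM in hippocampus conditioned 6 h, control 6 h and control 1 h, against 159, 146 and 108 CPM in cortex, with no overlap. Rcan2, a calcineurin regulator, fell by 1.22 (SE 0.34, edgeR adjusted p = 0.0421), and stood at -0.88 (adjusted p = 0.0539) without the hippocampus control 6 h library. With all 8 libraries no list gene passed. Other settings called more: Pcp4 (adjusted p = 0.0011), Camk1 (0.0168), Dclk1 (0.0308) and Ppp1r9b (0.0436) passed in edgeR without the hippocampus control 6 h library, Camk1 (0.0343), Ppp1r9b (0.0116), Prkaa2 (0.0175) and Crtc3 (0.0408) with the GC and length trend removed, and Camk1 (0.0329) with the conditioned 1 h pair summed. Where no gene of a list passed, the smallest p values were those of Pcp4 (-0.93) and Gap43 (-0.80), of Camk1 (-1.38) and Dclk2 (0.66), and of Prkaa1 (0.92) and Crtc3 (0.92). The list medians lay between -0.32 and 0.23, against 0.00 over all rows.

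For training at 6 h, none of the 50 list genes passed in edgeR, and list medians lay between -0.55 and 0.22, against 0.02 over all rows. The smallest p values in each list were those of Nrgn (-0.83) and Pcp4 (-0.73), Camk2n2 (0.85) and Pnck (0.65), Ppp3ca (-1.28) and Ppp3cc (0.70), Syn1 (-0.82) and Lrrc7 (-0.62), and Prkaa1 (-0.99) and Atf1 (-1.08). Each had an adjusted p of 0.911.

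The genes nearest in pattern to Camk2a, by the root mean square (RMS) difference of centred log2 CPM over the 6 libraries among 6218 genes, were Slitrk5 (0.056), Hgsnat (0.058), Epb41l1 (0.058), Osbpl2 (0.069) and Clcn4 (0.091), against a median RMS of 0.53. Epb41l1 had 347, 215 and 278 CPM in hippocampus conditioned 6 h, control 6 h and control 1 h, and 284, 276 and 244 CPM in cortex. Nearest to Camk2n1 were Prkar2b (0.28), Lpgat1 (0.30), Hmgb3 (0.33) and Klf6 (0.34), against a median of 0.97. Lpgat1 had 96.2, 86.9 and 62.4 CPM in hippocampus conditioned 6 h, control 6 h and control 1 h, against 186, 177 and 60.7 CPM in cortex. Since these genes were picked for likeness over the same 6 libraries, their shared pattern and small RMS follow from the choice.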

How the data were processed

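Polyribosome-associated RNA was depleted of ribosomal RNA, reverse transcribed from random and poly A primers, and amplified by SPIA and PCR, per the labels' protocols. The authors deposited raw whole-number counts of reads for each RefSeq transcript. The submitters' processing notes name the build mm9 and, without a role, TopHat 1.3.1, CASAVA 1.7, limma 3.12.3 and edgeR. Neither the counter nor its treatment of strand is given in the sources used here. No column of another sample was present. Of 28157 rows, 97.9% were matched to a symbol through RefSeq and GENCODE tables of GRCm38, which also gave transcript length and GC content.

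Tests used edgeR 4.0.16 in R 4.3.3 (robust quasi-likelihood fit, TMM factors, default low-count filter, Benjamini-Hochberg adjustment over all rows, threshold 0.05), and the scripts were tested on simulated data. The 6-library fit left 2 residual degrees of freedom, the 8-library fit 3 and the interaction fits 1. The edgeR fit moderates the spread of a row toward that of all rows, so its p-values rest on more than these. SE is the log2 change divided by the square root of the F statistic. Alternatives were other scaling factors, no filter, DESeq2 1.42.0, limma-voom (limma 3.58.1), summed rows, 1 row per gene, removal of a GC and length trend (spline with 5 degrees of freedom), other sets of libraries and each library left out. The interaction of time and tissue, the means of the second Camk2a row, the sign-flip test of the matched ratios, 1 row per gene, the 8 libraries without hippocampus control 6 h, and the list counts under other settings were chosen after seeing the data.

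All members are named. Of each pathway list, the 3 largest rises and falls that passed are named, or the 2 genes of smallest p where none did. Of genes in a pattern like Camk2a or Camk2n1, the 5 nearest with a mean log2 CPM of at least 4 are named. A list gene and a gene near Camk2n1 that these rules pick are not reported here. Naming Calm3 and the genes that passed under other settings was a choice made after their values were seen. The members and lists were chosen with earlier results of these data known. Intervals are at 95% and cover counting error only, since reads without molecular identifiers are not independent molecules. Rows of 1 gene can share reads.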

Additional observations from a re-analysis of the deposited data

How the results depend on the processing

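Of 720 alternative values of the members, 634 kept their direction and side of the threshold, 5 lost a call, 26 gained one, 12 ratios moved beyond their counting interval, and 43 changed sign with neither value past the threshold; the cause was not tested. Hippocampus and cortex libraries were matched by time and training, which the 6-library fit holds as terms; with this matching as a block, the exact sign-flip p was 0.25 for both ratios (means of -0.48 and -1.22). For hippocampus against cortex, the 600 passing transcripts became 921 with no filter, 346 with summed rows, 383 with 1 row per gene, 1018 with the GC trend removed, 0 with all 8 libraries and 200 to 874 with 1 library left out. The 1 passing member became 3 with no filter, limma-voom or the GC trend removed, 2 with DESeq2, 0 with all 8 libraries and 0 to 4 with 1 library left out. For 6 h against 1 h, the 3745 became 867 with the GC trend removed, 7280 with all 8 libraries, 6167 with the conditioned 1 h pair summed, 7948 with 8 libraries less hippocampus control 6 h and 0 to 6966 with 1 library left out. The 1 passing member became 2 with RLE factors, no filter, DESeq2, limma-voom, the GC trend removed or 8 libraries less hippocampus control 6 h, 3 with all 8 libraries or the pair summed, and 0 to 3 with 1 library left out. For training at 6 h, leaving out 1 library gave 0 to 2067 transcripts (2067 without cortex control 6 h), no member among them. For its interaction with tissue, DESeq2 called 1. Between tissues, Camk2a changed sign with upper-quartile factors (-0.0060), with no filter (-0.0032) and with 1 library left out (-0.18 to 0.22). Between times, Camk2a became 0.10 with summed rows, 0.26 with the GC trend removed, 0.087 with all 8 libraries, 0.057 with the pair summed and 0.19 with 8 libraries less hippocampus control 6 h, where Camkk2 became -0.063. With the GC trend removed, Camk2b became 0.76 and Camk2d -0.32. With 1 library left out, Camk2a spanned -0.38 to 0.27, Camk2b -0.38 to 0.21 and Camk2g -0.15 to 0.96. For training at 6 h, Camk2b and Camk2g became -0.016 and -0.025 with RLE factors and with DESeq2, and -0.41 and -0.075 with the GC trend removed, and Camk2d became 0.013 with the pair summed. With 1 library left out, Camk2b spanned -0.26 to 0.28, Camk2d -0.62 to 0.022, Camk2g -0.52 to 0.60 and Camk2n1 -0.46 to 0.65. Over 8 libraries, Camk2b became -0.21 with the GC trend removed, and with 1 library left out Camk2d spanned -0.39 to 0.30, Camk2g -0.070 to 0.31, Camk4 -0.41 to 0.058 and Camkk2 -0.49 to 0.012. In the interaction of training and tissue, Camkk2 became 0.0077 with no filter, and Camk2b, Camk2d and Camkk1 became -0.12, 0.32 and -0.059 with the GC trend removed.

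With 1 library per combination and 1 to 3 residual degrees of freedom, differences of modest size were not detectable. The tissue comparison rests on 3 libraries of each tissue that mix times and training, and the time comparison on 4 control libraries. Camk2d, Camkk1 and Camkk2 had 59 to 663 counts in a library, so their ratios carry the most counting error.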
